A study of Mus musculus with 6 samples.

Results

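The early response factors of the Egr and Nr4a families, the Nab corepressors that bind Egr proteins, and the immediate early response genes *Ier2* and *Ier3* were followed in mouse corneal epithelium. The 10 genes (*Egr1*, *Egr2*, *Egr3*, *Nr4a1*, *Nr4a2*, *Nr4a3*, *Nab1*, *Nab2*, *Ier2* and *Ier3*) were taken by symbol from the 17784 genes of the expression table. They were chosen by their read counts and TPM (a transcript level corrected for transcript length and library depth) in *Ptch1*-ablated against control samples, with those values already known. Their differences between the groups are therefore a description, and where a call rule or an interval is printed for them it describes these values and tests nothing. Of the 10, 9 passed the filter on low counts, as did 12999 genes in all, and *Nr4a3* did not.

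The study asked how loss of *Ptch1*, the receptor that holds Hedgehog signalling off, changes the corneal epithelium when the deletion is directed at the stroma. *Ptch1*-ablated mice carried *Prrx1-CreERT* and floxed *Ptch1*, and control mice are labelled ctrl or WT. Per the labels both groups were 10 weeks old and received 3 doses of tamoxifen (TAM), with a treatment time of 2 months. The labels' age and treatment time are not easily reconciled with each other or with the timeline of the study, so age at sampling is uncertain. *Prrx1-CreERT* is a tamoxifen-dependent recombinase active in keratocytes, other ocular mesenchymal cells and the corneal endothelium, so the epithelium measured here is not the layer at which it is aimed. Bulk RNA of corneal epithelial cells was sequenced from 3 biological replicates per group. The study describes separation of epithelium and stroma with EDTA for qPCR, and its sequencing methods do not state how these cells were isolated.

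The deposited estimated counts summed to 20296741 to 20625813 per sample, so depth was nearly equal, and 3 counts corresponded to 0.145 to 0.148 CPM. *Ptch1* itself was at 7.31 to 10.2 TPM in the controls and 5.28 to 7.01 TPM in the *Ptch1*-ablated samples, and *Gli1*, a Hedgehog target, had at most 3 counts in any sample. *Krt12*, the keratin that defines corneal epithelium, was at 37107 to 49487 TPM in the 6 samples. Not all of the 13 listed corneal epithelial markers were alike between the groups. *Krt14* was at 534 to 644 TPM in the controls and 2420 to 5798 TPM in the *Ptch1*-ablated samples. By normalised counts, every *Ptch1*-ablated sample was above every control for 1 of the 13 and below for 4. Over all tested genes the shares were 19.7% and 20.3%. *Kera*, which defines keratocytes, was at 0.07 TPM or less and *Ptprc*, the pan-leukocyte marker, at 0.20 TPM or less. Some stromal transcripts were present in control replicate 3, where *Col1a2* was at 26.0 TPM against 0.91 and 1.69 in the other controls and *Vim* at 20.8 TPM against 1.71 and 2.23. *Ptch1*-ablated replicate 1 stood apart from the other *Ptch1*-ablated replicates (chi-square per degree of freedom of at least 37.9, against 10.6 to 18.7 between the other pairs of replicates). Fold changes of the members without it are given below. In bulk RNA, fewer cells of a type and less RNA per cell cannot be told apart.

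EGR proteins are zinc finger transcription factors that bind GC-rich sites, and their genes are switched on within minutes of growth factor, stress or wound signals without new protein synthesis. NAB1 and NAB2 dock on EGR1, EGR2 and EGR3 and hold their activity down, and *Nab2* is itself a known EGR target, which closes a feedback loop. The NR4A proteins are orphan nuclear receptors whose activity is set largely by how much is made, and their genes are classic targets of cAMP signalling through CREB. *Ier2* and *Ier3* encode small proteins unrelated to either family that are named for the same rapid induction. In corneal epithelium, as in other epithelia, *Egr1* is known to be induced rapidly by wounding.

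Promoter sequence is shown first, because the members differ in the sites that signal-driven factors are known to bind. RefSeq windows of 250 bases before a transcription start (GRCm38.p6) were at hand for *Egr2* (5 windows), *Nr4a1*, *Nr4a2*, *Nr4a3*, *Nab1*, *Nab2* and *Ier3*, and not for *Egr1*, *Egr3* and *Ier2*. They were searched on both strands for the serum response element (by name, the CArG box of SRF), the cAMP response element TGACGTCA, its half-site TGACG, the EGR sites GCGTGGGCG and GCGGGGGCG, the NR4A site AAAGGTCA, and the AP-1 sites TGACTCA and TGAGTCA. The full cAMP element contains overlapping half-sites. In the lines below, which run 5′ to 3′ along each gene's own strand, capitals mark the matches, and a match on the opposite strand appears as its reverse complement.
Egr2: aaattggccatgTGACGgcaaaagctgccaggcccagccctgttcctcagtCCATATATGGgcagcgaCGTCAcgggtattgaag
Nr4a1: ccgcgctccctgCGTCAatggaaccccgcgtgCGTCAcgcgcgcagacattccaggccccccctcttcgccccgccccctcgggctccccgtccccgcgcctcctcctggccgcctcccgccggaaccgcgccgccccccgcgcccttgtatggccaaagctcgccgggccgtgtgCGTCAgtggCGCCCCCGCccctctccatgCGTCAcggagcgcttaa
Nr4a2: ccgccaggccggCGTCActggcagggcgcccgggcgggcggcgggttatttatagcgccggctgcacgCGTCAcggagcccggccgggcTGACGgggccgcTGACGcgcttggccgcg
Nr4a3: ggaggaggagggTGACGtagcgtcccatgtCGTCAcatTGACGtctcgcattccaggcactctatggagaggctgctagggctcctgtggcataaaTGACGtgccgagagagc
Nab1: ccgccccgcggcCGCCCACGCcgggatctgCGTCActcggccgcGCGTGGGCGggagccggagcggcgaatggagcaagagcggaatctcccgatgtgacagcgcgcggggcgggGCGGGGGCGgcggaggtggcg

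The *Egr2* stretch (chr10:67537746-67537830, plus strand) holds a serum response element flanked by 2 half-sites. The element was present in 4 of the 5 *Egr2* windows and in 1.47% of all 32851 windows. Windows of 1 gene can overlap, so the matches in these 4 need not be separate sites. The *Nr4a1* stretch (chr15:101266601-101266822, plus strand) holds 4 half-sites and 1 EGR site. The *Nr4a2* stretch (chr2:57124098-57124215, minus strand) and the *Nr4a3* stretch (chr4:48045062-48045174, plus strand) hold 4 half-sites each.

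Every Nr4a window thus had 4 half-sites, whereas 17.8% of all windows had at least 1 and 0.137% had 4 or more. The *Nab1* stretch (chr1:52500466-52500601, minus strand) holds 3 EGR sites and 1 half-site. An EGR site was found in 3.06% of all windows and 3 or more in 0.0335%. None of these letters occurred in the *Nab2* and *Ier3* windows. No member window held the full cAMP element, the NR4A site or an AP-1 site, which occurred in 1.55%, 1.34% and 4.46% of all windows. The matches are letters in a sequence and were not measured as bound sites.

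*Egr1*, the most abundant of the 3 Egr genes, was at 81.3, 129 and 64.8 TPM in control replicates 1, 2 and 3 (91.5 ± 33.1, SD, n = 3). It was at 204, 335 and 226 TPM in *Ptch1*-ablated replicates 1, 2 and 3 (255 ± 69.9, SD, n = 3). Every *Ptch1*-ablated sample lay above every control, with replicate 2 the highest of each group. The fold change from normalised counts was 2.86 (log2 1.52, SE 0.28), and it ran from log2 1.27 to 1.83 over the other settings tried.

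*Egr2*, better known for its role in Schwann cells and in the hindbrain, was at the edge of detection. Its counts were 5, 3 and 3 in the controls and 29, 11 and 19 in the *Ptch1*-ablated samples, or 0.20, 0.13 and 0.13 against 1.09, 0.40 and 0.69 TPM. The groups did not overlap. Summed over replicates, 59 counts stood against 11, a depth-corrected ratio of 5.56 (95% counting interval 2.89 to 11.7). The log2 fold change was 2.44 (SE 0.50).

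*Egr3*, a close relative of *Egr2*, had 2, 0 and 0 counts in the controls and 22, 10 and 11 in the *Ptch1*-ablated samples. The *Ptch1*-ablated samples were at 0.57, 0.27 and 0.30 TPM, and 2 of the 3 controls were listed at 0. The summed counts were 43 against 2, a ratio of 22.3 with a wide counting interval (95%, 5.80 to 190), and the log2 fold change was 4.24 (SE 0.85). *Egr2* and *Egr3* passed the low-count filter only through the *Ptch1*-ablated samples and therefore had to differ. The 3 Egr genes were higher together, but on the TPM scale *Egr1* made 99.2% to 99.9% of the summed Egr level in each of the 6 samples.

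**Figure D1:**
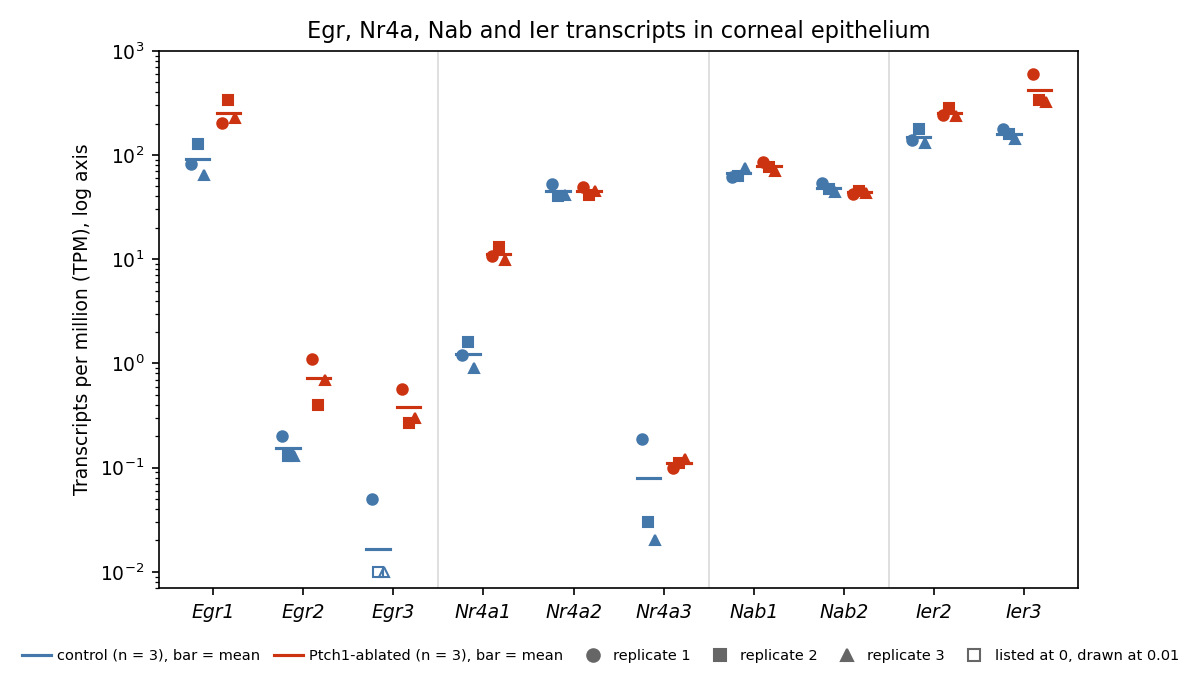
Levels of the 10 genes in TPM (log axis) in each of the 3 control and 3 *Ptch1*-ablated samples, with bars at group means and open symbols for samples listed at 0. *Egr1*, *Egr2*, *Egr3*, *Nr4a1*, *Ier2* and *Ier3* do not overlap between the groups, whereas *Nr4a2*, *Nr4a3*, *Nab1* and *Nab2* do.

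*Nr4a1*, also called Nur77, was at 1.2, 1.6 and 0.91 TPM in the controls (1.24 ± 0.346, SD, n = 3). It was at 10.6, 13.2 and 9.92 TPM in the *Ptch1*-ablated samples (11.3 ± 1.73, SD, n = 3). The lowest *Ptch1*-ablated sample had 6.13 times the normalised count of the highest control. The fold change was 9.25 (log2 3.21, SE 0.23), and leaving out any 1 sample gave log2 3.01 to 3.42.

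*Nr4a2*, or Nurr1, the factor required for midbrain dopamine neurons, was the abundant Nr4a gene of this tissue. It was at 53.0, 40.2 and 41.6 TPM in the controls and 49.2, 41.0 and 44.9 TPM in the *Ptch1*-ablated samples. The groups overlapped and their means, 44.9 and 45.1 TPM, were close beside the replicate SDs of 6.99 and 4.12. The log2 fold change was 0.03 (SE 0.14), between −0.08 and 0.19 over the other settings.

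*Nr4a3*, or NOR1, had 10.1, 1.46 and 1 counts in the controls and 4.94, 5.83 and 6.33 in the *Ptch1*-ablated samples. The groups overlapped, since control replicate 1 was the highest sample and the other two controls were the lowest. Summed over replicates the ratio was 1.42 with a counting interval that spans 1 (95%, 0.620 to 3.03), and with at most 10.1 counts per sample this depth gives no finer value.

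The differences between fold changes of the Nr4a genes were not tested, and each of the 3 had 4 half-sites in its window. On the TPM scale *Nr4a1* made 2.21%, 3.82% and 2.14% of the summed Nr4a level in the controls and 17.7%, 24.3% and 18.0% in the *Ptch1*-ablated samples. *Nr4a2* made the larger part in every sample, with a share of 96.1% to 97.8% in the controls and 75.5% to 82.1% in the *Ptch1*-ablated samples. The summed Nr4a level was 54.4, 41.9 and 42.5 TPM against 60.0, 54.3 and 55.0 TPM, groups that overlapped at control replicate 1.

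*Nab1* was at 61.4, 63.2 and 75.6 TPM in the controls and 86.5, 76.9 and 70.6 TPM in the *Ptch1*-ablated samples. The groups overlapped, with *Ptch1*-ablated replicate 3 below control replicate 3, and the log2 fold change was 0.27 (SE 0.12). *Nab2* was at 53.6, 47.5 and 43.7 TPM against 42.6, 45.1 and 43.4 TPM, again overlapping, with a log2 fold change of −0.11 (SE 0.10). Exons of *Nab2* overlap those of *Stat6* by 40 bases, of *Nemp1* by 151 bases and of the antisense gene *Gm16229* by 1050 bases on the opposite strand (GENCODE M21). The labels and the methods name different library preparations and neither says that strand was used in counting, so reads of *Nab2* and of these genes may not have been told apart in the overlaps.

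With overlapping Nab levels and higher *Egr1*, the summed Nab level per summed Egr level was 1.41, 0.860 and 1.84 in the controls and 0.627, 0.364 and 0.502 in the *Ptch1*-ablated samples. Every *Ptch1*-ablated ratio was below every control ratio. These are ratios of transcripts in TPM, and no protein was measured.

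**Figure D2:**
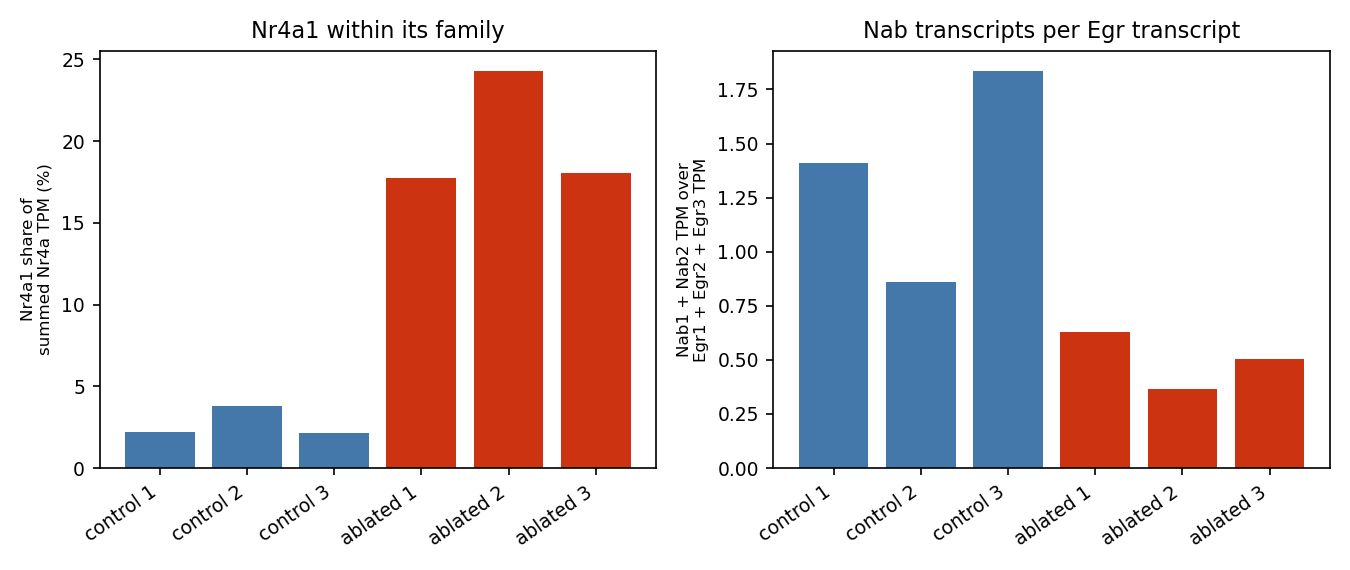
Left, *Nr4a1* TPM as a percentage of the summed TPM of *Nr4a1*, *Nr4a2* and *Nr4a3* in each sample. Right, summed *Nab1* and *Nab2* TPM over summed *Egr1*, *Egr2* and *Egr3* TPM, where each bar is 1 sample. The *Nr4a1* share is 2.14% to 3.82% in the controls and 17.7% to 24.3% in the *Ptch1*-ablated samples, and the Nab to Egr ratio is 0.860 to 1.84 in the controls and 0.364 to 0.627 in the *Ptch1*-ablated samples.

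*Ier3*, also called IEX-1 and linked to cell survival under stress, was at 176, 159 and 143 TPM in the controls (159 ± 16.3, SD, n = 3). It was at 602, 337 and 325 TPM in the *Ptch1*-ablated samples (421 ± 157, SD, n = 3). Every *Ptch1*-ablated sample was above every control, and replicate 1 stood well above the other two. The fold change was 2.74 (log2 1.46, SE 0.27) and without *Ptch1*-ablated replicate 1 it was log2 1.06.

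*Ier2*, a nuclear protein gene, was at 140, 177 and 130 TPM in the controls and 241, 280 and 237 TPM in the *Ptch1*-ablated samples. The groups did not overlap. The fold change, 1.74 (log2 0.80, SE 0.13), lay below 2-fold in the full data and without any 1 sample (log2 0.70 to 0.93). The ratio of *Ier3* to *Ier2* in TPM was 1.25, 0.900 and 1.10 in the controls and 2.49, 1.21 and 1.37 in the *Ptch1*-ablated samples, with overlap between *Ptch1*-ablated replicate 2 and control replicate 1.

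The study's call rule, an adjusted p of at most 0.05 and a change of at least 2-fold, was met in the higher direction by *Egr1*, *Egr2*, *Egr3*, *Nr4a1* and *Ier3*, 5 of the 9 genes that passed the filter. Of all tested genes, 2.34% met it in the higher and 0.892% in the lower direction. At any fold 6 of the 9 (*Ier2* in addition) met the adjusted p, against 7.61% of all tested genes higher and 6.41% lower. The same 6 had every *Ptch1*-ablated sample above every control, which held for 19.7% of all tested genes, and 20.3% had every *Ptch1*-ablated sample below. The median log2 fold change of the 9 was 1.46 and that of all tested genes −0.01. Because this contrast chose the members, nothing is read from these counts.

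*Egr1*, *Egr2*, *Egr3* and *Ier3* each lost the call in at least 1 fit that left out 1 control. Such fits have fewer samples, and over all genes the calls fell from 420 to 250, 59 and 254 without control replicate 1, 2 or 3. *Nr4a1* met the rule in each of the 15 settings tried. *Egr1* met it in 14 and missed it without control replicate 1, at log2 1.46. *Ier3* met it in 13 and missed it without control replicate 2 (log2 1.44) or 3 (log2 1.37).

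*Egr2* met it in 9 of 12 settings and missed it without control replicate 1, 2 or 3 (log2 2.72, 2.31 and 2.30). *Egr3* met it in 10 of 12 and missed it without control replicate 2 or 3 (log2 3.73 and 3.72). Without control replicate 1 the remaining controls of *Egr3* were at 0, so the log2 value of 6.88 obtained there depends on the offset added to the counts. For *Nr4a1* the log2 difference was 2.46 when computed on log2(TPM + 1), a scale that understates the change of low genes.

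**Figure D3:**
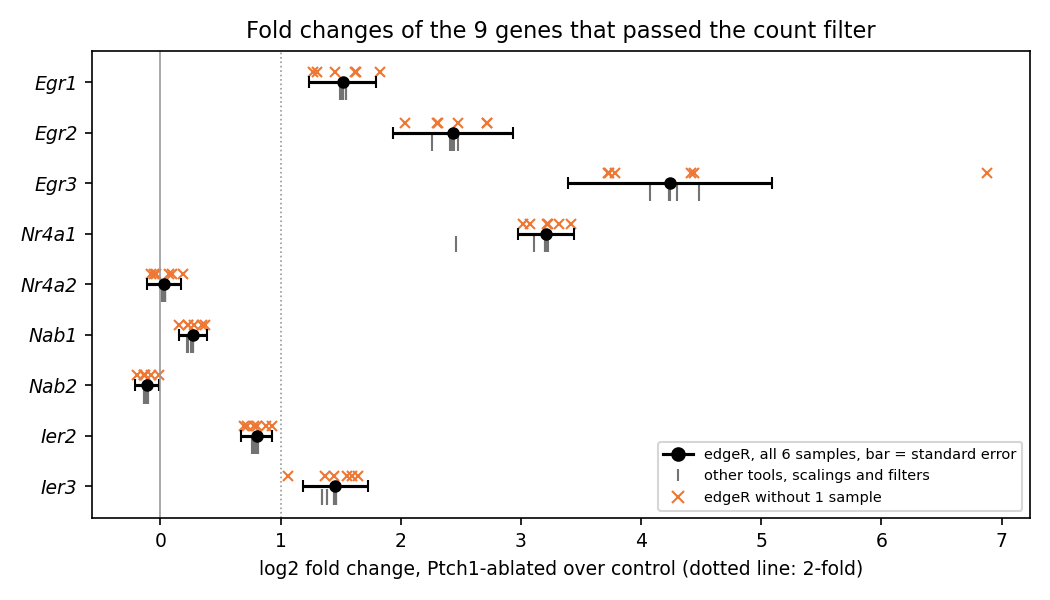
Log2 fold change of *Ptch1*-ablated over control samples for the 9 genes that passed the count filter. Points and bars are the edgeR estimate and its standard error over all 6 samples, grey ticks are other tools, scalings and filters, and crosses leave out 1 sample, as for *Egr3* at 6.88 without control replicate 1. *Nr4a2*, *Nab1*, *Nab2* and *Ier2* lie below the dotted 2-fold line under each setting shown.

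Within the groups the members did not share 1 order. *Egr1*, *Nr4a1* and *Ier2* had the same order in the controls, with replicate 2 highest and replicate 3 lowest, and were each highest in *Ptch1*-ablated replicate 2. *Egr2*, *Egr3*, *Nr4a2* and *Ier3* were instead highest in control replicate 1 and *Ptch1*-ablated replicate 1. Over the 10 genes the highest control was replicate 1 for 6, replicate 2 for 3 and replicate 3 for 1, while replicates 1 and 2 were the highest *Ptch1*-ablated sample for 5 each. Of genes that are not members, and chosen after their values were seen, *Atf3* stood out in control replicate 1 at 22.7 TPM, against 2.23 and 1.58 in the other two controls and 47.7 to 88.8 in the *Ptch1*-ablated samples. *Plk3* (41.3 against 11.6 and 8.05 TPM), *Arc* (20.2 against 5.38 and 5.67), *Fosb* (18.2 against 8.41 and 9.07) and *Maff* (33.4 against 16.1 and 15.1) stood out in the same control.

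Most members were compact genes, a feature that the choice of genes did not use. In GENCODE M21 the 10 genes spanned a median of 7183 bases, against 24333 over the tested genes that were matched, with 8 of the 10 below that value. Their longest transcripts were not shorter in the same way, with a median of 3267 bases against 3390 and 5 of the 10 below. *Ier3* (1240 bases, 2 exons) and *Ier2* (1522 bases, 1 exon) were the shortest, and the Egr genes spanned 5162 to 6714 bases with 2 exons each. *Nr4a3* (41295 bases) and *Nab1* (43386 bases) were the long exceptions. The Nr4a genes and *Nab1* had 8 exons, which is also the median of all tested genes.

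The genes whose sample profile lay closest to a member's were sought among 10316 tested non-members with a mean normalised count of at least 100. Likeness was the root mean square distance of log2 normalised counts, centred on the control mean, over the 6 samples. The closest to *Egr1* were *Zfp36*, which speeds mRNA decay (distance 0.27), the antiproliferative gene *Btg2* (0.28) and the necroptosis kinase gene *Ripk3* (0.33). The closest to *Nr4a1* were *H60c*, a ligand of the NKG2D receptor (0.30), *Csn3* (0.51) and *B3galt5* (0.54). The closest to the mean of the members were *Slc35e4* (0.14), the linker histone gene *H1f2* (0.16) and *Arl4d* (0.17). The log2 fold changes of these 9 genes, 1.40 to 3.11, followed from how they were sought.

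Many other genes of the early response were higher as well. Of 41 listed, 39 were tested, 13 of which rose by the call rule, against the 2.34% of all tested genes given above, and none fell. At any fold 20 rose at an adjusted p of at most 0.05, against 7.61% of all tested genes. The log2 fold change was above 0 for 34 of the 39 and had a median of 0.78, beside −0.01 over all tested genes. The list was drawn up with results of these data known, and without control replicate 2 or 3 the calls were 5 and 8. Control replicate 1 was the highest control for 25 of the 39. Without it 14 were called, but only 10 of these were among the 13 called with all samples. *Socs3*, which restrains cytokine signalling through STAT3, rose from 1.22, 0.86 and 0.51 TPM to 20.7, 12.6 and 18.6 TPM (log2 4.34, SE 0.32, edgeR adjusted p = 0.00263).

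The AP-1 gene *Jun* rose from 56.9, 62.2 and 61.1 TPM to 421, 309 and 227 TPM (log2 2.47, adjusted p = 0.00436). *Fosb* (log2 2.57) and *Fos* (log2 1.26, adjusted p = 0.0180) rose with it. *Dusp1*, the phosphatase that shuts off p38 and JNK, rose from 103, 74.5 and 55.6 TPM to 530, 412 and 270 TPM (log2 2.43, adjusted p = 0.00947), and *Dusp5*, its counterpart for ERK, rose by log2 1.17. *Btg2* (1.59), *Zfp36* (1.47), *Errfi1*, a feedback inhibitor of the EGF receptor (1.23), and *Csrnp1* (1.28) complete the 10 called genes with the smallest p. Without *Ptch1*-ablated replicate 1 *Jun* was at log2 2.17 and *Dusp1* at 2.14, and *Dusp5* was below the 2-fold limit at 0.98. *Jun*, *Socs3*, *Btg2*, *Zfp36* and *Errfi1* met the rule in each of 15 settings, whereas *Fos* was not called without *Ptch1*-ablated replicate 2 or any 1 control. *Junb* (0.73), *Sgk1* (0.65), *Myc* (0.91), *Klf10* (0.78) and *Pim1* (0.55) passed the adjusted p but not the 2-fold limit.

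The genes that carry signals to Egr and Nr4a promoters showed small differences at the transcript level. Of 37 listed kinases, receptors and factors (the ERK, p38 and JNK cascades, SRF and its ternary complex partners, CREB and its kinases) 36 were tested. None met the call rule in edgeR, DESeq2 or voom, 11 were higher and 2 lower at an unadjusted p under 0.05 in edgeR, against 17% and 16.5% of all tested genes, and their log2 fold changes ran from −0.48 to 0.57 with a median of 0.07. At an adjusted p of at most 0.05 and any fold, 5 of the 36 rose and none fell, against 7.61% and 6.41% of all tested genes.

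*Srf*, the factor that binds the serum response element shown above for *Egr2*, rose from 24.8, 27.6 and 27.1 TPM to 35.6, 32.2 and 41.8 TPM (log2 0.50, SE 0.09, edgeR adjusted p = 0.0193). *Elk3*, a ternary complex partner of SRF, rose from 36.7, 37.5 and 43.3 TPM to 56.4, 56.0 and 59.9 TPM (log2 0.57, adjusted p = 0.00769). The others were *Mapk8*, which encodes JNK1 (0.50), the kinase gene *Rps6ka4* (0.36) and *Nras* (0.33). For *Mapk3* (−0.01) and *Creb1* (0.09), the log2 fold changes did not pass. Signalling acts through phosphorylation, which these data do not measure.

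Of 29 genes listed as EGR targets, 25 were tested, and 3 rose and none fell by the call rule, against 2.34% and 0.892% of all tested genes. At any fold 5 rose and 5 fell, against 7.61% and 6.41%, and the median log2 fold change was 0.07. *Ptges*, a prostaglandin E synthase, rose from 16.9, 18.1 and 19.5 TPM to 60.4, 38.3 and 43.5 TPM (log2 1.46, SE 0.19, edgeR adjusted p = 0.00857). *Plau*, an enzyme of plasminogen activation, also rose (log2 1.69, adjusted p = 0.0380), a call that was lost in 8 of 15 settings, among them without *Ptch1*-ablated replicate 1.

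The fibronectin gene *Fn1* fell from 153, 126 and 136 TPM to 53.8, 84.7 and 74.3 TPM (log2 −0.93, adjusted p = 0.0148), just under the 2-fold limit. *Hpse* (−0.45) and *Sod1* (−0.42) fell and *Hif1a* (0.42) and *Mmp14* (0.44) rose at any fold. The number of calls in this list changed when 1 sample was left out. Without control replicate 2 edgeR called 0 of the list, without control replicate 3, *Ptch1*-ablated replicate 1 or *Ptch1*-ablated replicate 3 it called 1, and without *Ptch1*-ablated replicate 2 it called 6. With all 6 samples DESeq2 called 5.

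Of 19 listed NR4A partners and targets 11 were tested, and 1 rose and 1 fell by the call rule, against 2.34% and 0.892% of all tested genes. *Cdh13*, a cadherin without a cytoplasmic tail, rose from 8.63, 6.27 and 8.51 TPM to 14.0, 15.5 and 18.4 TPM (log2 1.06, SE 0.15, edgeR adjusted p = 0.010). *Fbp2*, a gluconeogenic enzyme, fell from 5.43, 3.54 and 3.47 TPM to 1.51, 1.91 and 2.36 TPM (log2 −1.08, SE 0.29, adjusted p = 0.0481). *Gch1* (0.99) and *Eno3* (0.32) rose at any fold. *Cyp17a1* (−0.66), *Slc18a2* (0.68) and *Slc2a4* (−0.55) did not pass, nor did *Rxra* (0.04), the dimer partner of NR4A1 and NR4A2. The median log2 fold change of the 11 was −0.03. The call of *Fbp2* was lost without any 1 of the 6 samples, with voom, with the replicate block, with the looser count filter and on log2(TPM + 1). That of *Cdh13* was lost on log2(TPM + 1) and without control replicate 2 or *Ptch1*-ablated replicate 3.

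**Figure D4:**
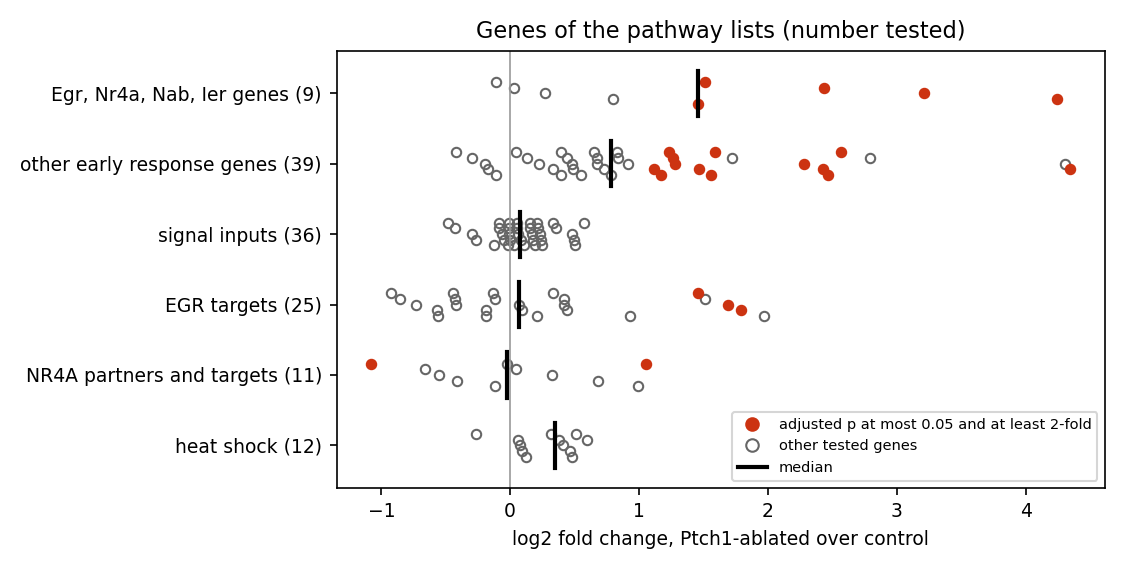
Log2 fold change of *Ptch1*-ablated over control samples for each tested gene of the member set and of 5 lists, with the number tested in brackets, medians as bars and filled points for genes past the call rule. The early response list has its median at 0.78, whereas the medians of the signal inputs and EGR targets are both 0.07 and that of the NR4A list is −0.03.

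Several lists of other cell types and of handling stress were set beside the members. The summed level of 15 immune markers, 5 of them tested, was 134 to 176 TPM in the controls and 158 to 670 TPM in the *Ptch1*-ablated samples. Its highest value was in replicate 1, where *S100a9* alone was at 373 TPM. *Ptprc* was at 0.20 TPM or less in each sample, and *Adgre1*, which marks macrophages, was at 0 in 5 of the 6 samples. Among the 5 tested immune markers, 3 had a log2 fold change above 0 and 2 below, with a median of 0.08. *Itgam* (log2 0.48) and *Cd68* (log2 0.27), both expressed by myeloid cells, did not pass the adjusted p. Both had every *Ptch1*-ablated sample above every control, as did 19.7% of all tested genes. *Cd74* (log2 −0.45), *H2-Ab1* (log2 −0.40) and *H2-Aa* (log2 0.08) did not pass either and overlapped between the groups. Without *Ptch1*-ablated replicate 1 the log2 fold changes were 1.63 for *Egr1*, 2.04 for *Egr2*, 3.79 for *Egr3*, 3.22 for *Nr4a1* and 1.06 for *Ier3*. The 8 conjunctival markers in the table, 6 of them tested, summed to 2398 to 3412 TPM in the controls and 3656 to 6213 TPM in the *Ptch1*-ablated samples, mostly from *Krt13* and *Muc4*, so this sum did not overlap between the groups either. Of the 6 tested conjunctival markers, 5 had a log2 fold change above 0 and 1, *Krt8*, was below. *Krt4* (log2 1.80) and *Krt19* (log2 1.46) did not pass the adjusted p and overlapped between the groups. *Muc4* rose (log2 0.50, edgeR adjusted p = 0.0298). *Krt8* fell (log2 −0.91, edgeR adjusted p = 0.0139), with every *Ptch1*-ablated sample below every control. *Spdef*, which marks goblet cells, was at 0.38 TPM or less.

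The 14 stromal markers in the table, 7 of them tested, summed to 70.4 to 126 TPM against 122 to 138 TPM, of which *Fbln1* made 57.8 to 66.4 and 110 to 126 TPM. *Fbln1* was the 1 tested marker with a log2 fold change above 0 (0.93, edgeR adjusted p = 0.00466). The other 6 were below 0, none at an adjusted p of at most 0.05, and the median of the 7 was −1.80. *Col6a1* (−3.14), *Col1a2* (−2.51) and *Vim* (−1.87) were each highest in control replicate 3. The highest control sum was that of replicate 3, and without it the log2 fold changes were 1.31 for *Egr1*, 3.01 for *Nr4a1* and 1.37 for *Ier3*. Of 12 heat shock genes, *Hspa8* (log2 0.48, adjusted p = 0.0236) and *Hspa1b* (0.41, adjusted p = 0.0307) rose at any fold. The log2 fold change was above 0 for 11 of the 12, with a median of 0.35, beside −0.01 over all tested genes. For 6 of the 12 every *Ptch1*-ablated sample was above every control, against 19.7% of all tested genes. Their summed level overlapped, at 5963 to 6421 against 6106 to 6515 TPM. The largest part of it was *Hspb1*, at 2635 to 2992 against 1984 to 2640 TPM, the 1 gene of the 12 below 0 (log2 −0.27). The part of these in the levels of the Egr, Nr4a and Ier genes was not tested.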

How the data were processed

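Corneal epithelial RNA was sequenced from 3 control and 3 *Ptch1*-ablated samples. Per the submitters' processing notes, reads were handled with Bowtie2 2.2.5 and RSEM 1.2.12 on mm9; the annotation is not given in the sources used here. The authors made an expected count per gene with RSEM and deposited it unnormalised, beside TPM, which were both used. The deposited FPKM and the authors' group mean columns were not used. Of all values above 0, 39.4% were not whole, which marks reads shared between genes or copies (*Nr4a2*, *Nr4a3*, *Nab1* and *Nab2* among the members), so such counts are uncertain.

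Expected counts were rounded, filtered with filterByExpr, scaled by TMM and tested with edgeR 4.0.16 (quasi-likelihood, R 4.3.3), with Benjamini-Hochberg adjustment over 12999 genes. A call needed an adjusted p of at most 0.05 and at least 2-fold change, the limits the study gives. The script was tested on simulated data. Alternatives were DESeq2 1.42.0, limma 3.58.1 (voom, and log2 of TPM plus 1 or 0.1 over genes with mean TPM of at least 1), other scalings and filters, each sample left out, and a replicate block. Levels of different genes were compared only in TPM. Normalised counts are per TMM-scaled library. Intervals on count ratios cover counting error only. If replicates share a source, p-values measure only the spread between samples. An exact permutation test of 3 against 3 cannot go below 0.1 and was not used.

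The members and gene lists were chosen with earlier results of these data known. Named in the text were the members, up to 10 called genes and 5 further genes of smallest p per pathway list, 3 nearest profiles each for *Egr1*, *Nr4a1* and the members' mean, and marker genes a statement needs. Some genes that this rule names are not reported here. Promoters are from RefSeq (GRCm38.p6) and gene spans from GENCODE M21 (97.0% of tested genes matched by symbol). No coordinate was taken from mm9.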

Additional observations from a re-analysis of the deposited data

How the results depend on the processing

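The cause of each change below was not tested, apart from the fewer samples or genes that a setting itself leaves. Of the Egr, Nr4a, Nab and Ier genes, 5 of the 9 tested met the call rule. With at least 10 counts in every sample 3 of 7 tested met it, as did 3 of 7 with limma on log2(TPM + 1) or log2(TPM + 0.1). *Egr2* and *Egr3* were not tested in those settings, and *Egr1*, *Nr4a1* and *Ier3* stayed called. Without 1 sample 2 to 5 met it, the lowest without control replicate 2 or 3. Over all genes 420 of 12999 were called, and 334 of 12249 with at least 10 counts in every sample. On log2(TPM + 1) and log2(TPM + 0.1) the calls were 234 and 311 of 11976. With no minimum fold 1822 were called, and 59 to 430 without 1 sample (250, 254 and 273 without control replicate 1, control replicate 3 or *Ptch1*-ablated replicate 1). The early response list had 13 calls, 20 with no minimum fold and 5 to 14 without 1 sample. The signal inputs had 0, and 5 with no minimum fold. EGR targets had 3, 5 with DESeq2, 10 with no minimum fold and 0 to 6 without 1 sample. NR4A partners and targets had 2, 1 with voom, 1 with the looser filter of at least 1 count, 4 with no minimum fold, 0 on log2(TPM + 1) and 0 to 2 without 1 sample. The values of 59, 5 and 0 (all genes, early response, EGR targets) came without control replicate 2. No called value changed sign. *Nr4a2*, not called at log2 0.03, was at −0.05, −0.04 and −0.08 without control replicate 2, control replicate 3 or *Ptch1*-ablated replicate 1. Same-numbered samples showed little deviation in common over all tested genes (correlations 0.0996, −0.0578 and 0.00617). With 3 samples per group this cannot exclude a pairing by number, and the main fit treated the samples as unpaired. With a replicate block the calls were 5, 390, 15, 0 and 4 in the order above, and 1 for the NR4A list. Depth limits *Egr2*, *Egr3* and *Nr4a3*, with at most 29 counts per sample.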
